A study of Mus musculus with 6 samples.

Results

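The 10 genes Msln, Upk3b, Upk1b, Wt1, Lrrn4, Krt19, Gpm6a, Bnc1, Muc16 and Slpi are known for their expression in mesothelium, and they were followed here in epididymal fat under a normal and a high-fat diet. They were chosen by name as markers of that cell layer, and each was found by matching its symbol in GENCODE M21 to 1 of the 54532 Ensembl identifiers of the count table. The fat was taken from male C57BL/6J mice that received a normal diet with 4.5% fat (ND) or a high-fat diet with 60% fat (HFD) from 4 weeks of age for 16 weeks, and that were therefore 20 weeks old and had no other treatment. RNA-Seq was done on 3 ND and 3 HFD samples of whole epididymal fat, a visceral depot, with the aim of asking whether adipocytes of obese mice resemble those found next to tumors. The labels do not say whether a sample is 1 mouse or a pool. The libraries held between 16996896 and 18859320 counts, and 3 counts, the floor used here, correspond to 0.150 to 0.181 counts per 1000000 (CPM), a figure that covers counting error only.

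Mesothelium is the single layer of flattened cells that covers the organs of the body cavities and lines the cavity walls, and in visceral fat it forms the outer surface of the depot. Its cells carry keratins like an epithelium, yet they arise from mesoderm, keep the transcription factor WT1 and can take on a fibroblast-like form after injury. The genes studied here encode proteins of its apical surface (Msln, Muc16, Upk3b, Upk1b), regulators of transcription (Wt1, Bnc1), membrane proteins first described in neurons (Lrrn4, Gpm6a), a keratin (Krt19) and a secreted protease inhibitor (Slpi).

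The bases before the transcription starts of the members are shown as a description of their sequence. In RefSeq (GRCm38.p6), 6 of the 10 genes had a promoter entry, with 7 promoters in all because Gpm6a has a pair of starts. Msln, Upk1b, Wt1 and Krt19 had none. The 250 bases before each start were searched on both strands for GGAATG, the letters that TEAD factors bind, and for GCGNGGGNG, letters that WT1 binds. The TEAD letters were in 3 of the 7 promoters (Upk3b, Lrrn4 and the upstream start of Gpm6a), and in 12.6% of 32851 mouse promoters of the same length. That Gpm6a promoter (chr8:54779184-54779433) lies far before the span annotated for the counted gene, which begins at 54954843. The other Gpm6a promoter (chr8:54954478-54954727), next to that span, had no match. The WT1 letters were in 1 of the 7, that of Bnc1, with 3 matches, and in 10.5% of all promoters. Capitals mark the TEAD letters on either strand in Upk3b (chr5:136038246-136038495, plus strand) and Lrrn4 (chr2:132880863-132881112, minus strand), and the WT1 letters in Bnc1 (chr7:81992300-81992549, minus strand). All are written 5′ to 3′ in the direction of the gene.
Upk3b: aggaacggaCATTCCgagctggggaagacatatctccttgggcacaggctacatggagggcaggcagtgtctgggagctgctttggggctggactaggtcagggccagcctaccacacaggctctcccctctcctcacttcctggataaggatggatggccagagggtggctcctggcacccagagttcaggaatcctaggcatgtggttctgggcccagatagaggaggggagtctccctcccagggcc
Lrrn4: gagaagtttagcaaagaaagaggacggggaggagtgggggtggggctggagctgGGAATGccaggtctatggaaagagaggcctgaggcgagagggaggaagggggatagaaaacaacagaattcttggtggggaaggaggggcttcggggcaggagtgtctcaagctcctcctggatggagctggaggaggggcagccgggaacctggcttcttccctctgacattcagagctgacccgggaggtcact
Bnc1: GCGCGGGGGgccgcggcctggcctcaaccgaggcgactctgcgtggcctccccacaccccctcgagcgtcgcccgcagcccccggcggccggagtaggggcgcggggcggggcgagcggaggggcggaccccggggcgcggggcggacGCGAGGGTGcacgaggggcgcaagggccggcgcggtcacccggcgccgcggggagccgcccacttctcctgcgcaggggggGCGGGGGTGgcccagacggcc
A match is a description of the letters only, and no binding was measured.

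All 10 genes were expressed in all 6 libraries, with between 87 and 3008 counts, and all 10 were among the 15751 genes that passed the filter on low counts. None of the 10 passed the test of diet. By edgeR's quasi-likelihood test across all genes, 0 of the 10 were higher and 0 were lower on HFD at an adjusted p-value under 0.05, while 15.9% of all tested genes passed (9.85% higher and 6.04% lower). At an unadjusted p-value under 0.05 the number was also 0, against 34.0% of all tested genes, and DESeq2 and limma-voom called 0 of the 10 as well. The median log2 fold change of the members, HFD against ND, was -0.09, beside 0.01 for all tested genes, and 7 of the 10 were negative, beside 49.5% of all genes. The 95% interval of the log2 fold change lay between -1 and 1, a 2-fold change either way, for 9 of the 10 members, Krt19 being the exception. In bulk tissue, fewer cells of a type and less RNA per cell cannot be told apart.

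**Figure D1:**
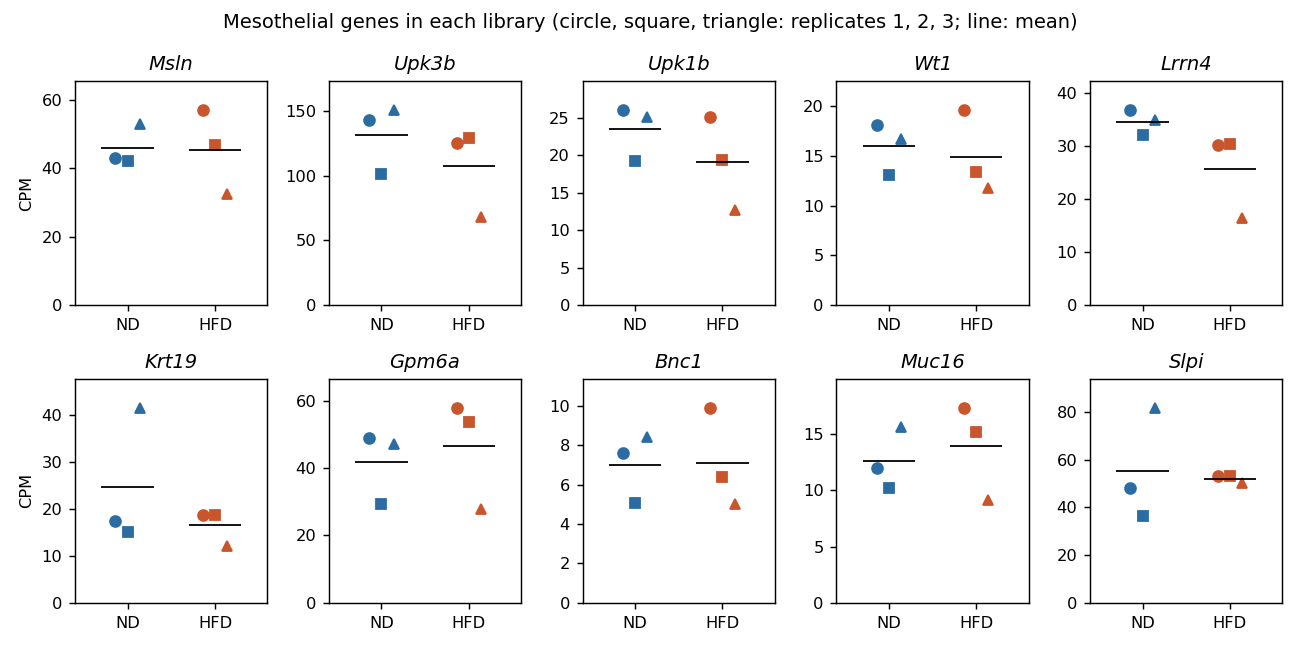
Level in CPM (linear axis from 0) of each of the 10 mesothelial genes in the 3 ND (blue) and 3 HFD (orange) libraries. Symbols mark the replicate and lines the group mean. The diets overlap in 9 of the 10 genes, while 40.9% of all tested genes did not overlap. The triangle of HFD replicate 3 is below the other HFD libraries in all 10, for which no share of all tested genes was computed. The triangle of ND replicate 3 stands apart in Krt19 and Slpi.

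Msln encodes mesothelin, a surface protein held by a lipid anchor, and Muc16 encodes its binding partner, a very large membrane mucin. Msln (ENSMUSG00000063011, chromosome 17 of GRCm38 from 25748613 to 25754378, minus strand) was at 42.9, 42.0 and 52.8 CPM in ND replicates 1, 2 and 3 and at 56.9, 46.8 and 32.4 CPM in HFD replicates 1, 2 and 3. The highest and the lowest library were both on HFD. Its log2 fold change was -0.02 (SE 0.21, 95% interval -0.52 to 0.48, adjusted p = 0.962). Muc16 (ENSMUSG00000109564, chromosome 9 from 18495455 to 18674530, minus strand) was at 12.0, 10.2 and 15.6 CPM under ND against 17.3, 15.2 and 9.16 CPM under HFD. As with its partner, HFD replicate 1 was the highest and HFD replicate 3 the lowest, and the diets overlapped. Its log2 fold change was 0.14 (SE 0.27, 95% interval -0.51 to 0.78, adjusted p = 0.763).

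Upk3b and Upk1b encode uroplakins, membrane proteins best known from the plaques of the bladder surface and also made by mesothelial cells. Upk3b (ENSMUSG00000042985, chromosome 5 from 136038496 to 136046487, plus strand), whose promoter is shown above, was at 143, 101 and 150.4 CPM under ND against 125, 129 and 68.4 CPM under HFD. HFD replicate 3 was the lowest, but HFD replicates 1 and 2 were above ND replicate 2. The log2 fold change was -0.29 (SE 0.27, 95% interval -0.92 to 0.35, adjusted p = 0.488). Upk1b (ENSMUSG00000049436, chromosome 16 from 38773184 to 38800328, minus strand), a tetraspanin and the usual partner of UPK3 proteins, was at 26.0, 19.3 and 25.1 CPM under ND against 25.1, 19.4 and 12.7 CPM under HFD. HFD replicate 3 was again the lowest, and the diets otherwise overlapped. Its log2 fold change was -0.30 (SE 0.25, 95% interval -0.90 to 0.30, adjusted p = 0.447).

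Wt1 encodes a zinc finger transcription factor of mesothelium, and Bnc1 encodes basonuclin, a zinc finger protein of basal epithelial cells and mesothelium. Wt1 (ENSMUSG00000016458, chromosome 2 from 105126529 to 105173616, plus strand) was at 18.1, 13.1 and 16.7 CPM under ND against 19.6, 13.4 and 11.8 CPM under HFD. HFD replicate 1 was the highest library and HFD replicate 3 the lowest. The log2 fold change was -0.10 (SE 0.23, 95% interval -0.63 to 0.44, adjusted p = 0.794). In visceral fat WT1 also marks some progenitors of adipocytes. Wt1os, the antisense gene that lies 18 bases from Wt1, had 34, 20 and 21 counts under ND against 17, 21 and 7 under HFD. The strand setting of the counting is not given in the sources used here, but no exonic bases of another gene overlap those of Wt1 in the annotation. Bnc1 (ENSMUSG00000025105, chromosome 7 from 81966672 to 81992292, minus strand) was at 7.61, 5.05 and 8.40 CPM under ND against 9.89, 6.38 and 5.01 CPM under HFD. Its highest and lowest values were again in HFD replicates 1 and 3. The log2 fold change was 0.02 (SE 0.32, 95% interval -0.73 to 0.76, adjusted p = 0.979). It shares 98 of its exonic bases (2.11%) with the pseudogene 4833418N17Rik, and reads there could have been assigned to either.

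Lrrn4 encodes a membrane protein with leucine-rich repeats, and Gpm6a encodes a membrane glycoprotein. Lrrn4 (ENSMUSG00000043110, chromosome 2 from 132868305 to 132880891, minus strand) was at 36.8, 32.2 and 34.9 CPM under ND against 30.2, 30.4 and 16.4 CPM under HFD. It was the 1 member of 10 in which every HFD library was below every ND library, a pattern that 19.1% of all tested genes showed, with 21.7% showing the reverse and 40.9% either. Its log2 fold change of -0.43 (SE 0.24, 95% interval -0.99 to 0.12) did not pass the test (adjusted p = 0.241). Gpm6a (ENSMUSG00000031517, chromosome 8 from 54954843 to 55060871, plus strand) was at 48.8, 29.3 and 47.0 CPM under ND against 57.8, 53.7 and 27.7 CPM under HFD. HFD replicates 1 and 2 were above all ND libraries and HFD replicate 3 was below them all. The log2 fold change was 0.15 (SE 0.31, 95% interval -0.57 to 0.88, adjusted p = 0.762).

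Krt19 encodes a type I keratin of simple epithelia, and Slpi encodes a secreted inhibitor of neutrophil elastase and other serine proteases. Both are also made by many epithelia outside the mesothelium. Krt19 (ENSMUSG00000020911, chromosome 11 from 100140810 to 100148665, minus strand) was at 17.5, 15.0 and 41.4 CPM under ND against 18.6, 18.7 and 12.1 CPM under HFD. ND replicate 3 alone was high, at 2.55 times the mean of the other two ND libraries. Its log2 fold change was -0.58 (SE 0.40, 95% interval -1.52 to 0.35, adjusted p = 0.343) with ND replicate 3 and -0.01 (SE 0.25, adjusted p = 0.978) without it. Slpi (ENSMUSG00000017002, chromosome 2 from 164354070 to 164389095, minus strand) was at 48.2, 36.5 and 81.7 CPM under ND against 53.1, 53.0 and 50.3 CPM under HFD. The HFD libraries were within a narrow range, and ND replicate 3 was again the highest, at 1.93 times the mean of the other two. The log2 fold change was -0.09 (SE 0.27, 95% interval -0.73 to 0.55, adjusted p = 0.845), and 0.27 (SE 0.16, adjusted p = 0.320) without ND replicate 3.

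ND replicate 3 held epithelial transcripts that the other libraries nearly lacked. The 13 general epithelial markers, such as Epcam, a surface protein of epithelia, summed to 117 CPM there and to between 3.31 and 7.05 CPM in the other libraries, and 13 of 13 were highest there. The 12 genes of motile cilia, among them the regulator Foxj1, summed to 179 CPM against 5.07 to 9.18 CPM, and 12 of 12 were highest there. The 9 kidney tubule genes summed to 136 CPM against 5.80 to 12.8 CPM, mostly from Lrp2 and Cdh16, whereas the tubule genes Slc12a1 and Umod had 0 and 7 counts. The 15 genes of the epididymis and seminal vesicle summed to 60 counts in ND replicate 3 and to fewer elsewhere. The 6 podocyte and Sertoli cell genes, looked at because podocytes and Sertoli cells also use WT1, summed to 1.04 to 3.01 CPM, with Nphs1 and Fshr at 0 in every library. The 8 members other than Krt19 and Slpi were at 1.01 to 1.41 times the mean of ND replicates 1 and 2 in this library. Over all tested genes, 18.5% were highest in ND replicate 3, and 3 of the 10 members were.

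HFD replicate 3 was the low library. It was below both other HFD libraries in all 10 members and was the lowest of all 6 libraries in 9 of them, with Slpi, lowest in ND replicate 2, as the exception. Of all tested genes, 28.4% had their lowest value of the 6 libraries there. Its level relative to the mean of HFD replicates 1 and 2 was between 0.497 for Gpm6a and 0.948 for Slpi. The summed level of the 10 members was 401, 303 and 474 CPM under ND against 414, 386 and 246 CPM under HFD, and without Krt19 and Slpi it was 335, 252 and 351 CPM against 342, 314 and 183 CPM. The ND libraries differed too, since ND replicate 2 was below ND replicates 1 and 3 in all 10 members. No share of all tested genes was computed for ND replicate 2 or HFD replicate 3 being lowest of its own diet. The standard deviation of log2 CPM within a diet had a median over the members of 0.31 on ND and 0.49 on HFD, beside 0.18 and 0.26 for all tested genes.

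Markers of other cell types moved with HFD replicate 3. Of all tested genes, 9.85% were called higher on HFD, 6.04% were called lower and 28.4% were lowest in HFD replicate 3. The 12 macrophage markers summed to 1925 to 2034 CPM on ND and to 5259.8, 4096 and 8931 CPM on HFD. Of the 12, 9 were called higher on HFD (median log2 fold change 1.44), and 11 were without HFD replicate 2. The number was 3 when ND replicate 1, ND replicate 2 or HFD replicate 1 was left out, and 5 without ND replicate 3. The 14 adipocyte markers summed to 37797 to 50611 CPM on ND and to 24338, 36655 and 15802 CPM on HFD, with 1 higher, Lep, and 4 lower (median -0.58), of which none passed when any 1 of ND replicates 1, 2 and 3 or HFD replicate 1 was left out, while 7 were lower without HFD replicate 2. The 8 endothelial markers, 0 of which passed the test (median -0.29, smallest adjusted p = 0.122, 1 at an unadjusted p-value under 0.05), summed to 1323 to 1629 CPM on ND and to 1524, 1371 and 753 CPM on HFD. They were lowest in HFD replicate 3 in 7 of 8 cases, and 1 was lower without HFD replicate 2. The 11 markers of fibroblasts and adipocyte progenitors summed to 5181, 5898 and 5503 CPM on ND. On HFD they summed to 4551, 3732 and 6929 CPM, highest in HFD replicate 3, where 6 of the 11 had their highest level. No share of all tested genes was computed for being highest in HFD replicate 3. Between the diets 0 of 11 were called in edgeR's test at either an adjusted or an unadjusted p-value under 0.05. The neutrophil markers, of interest because SLPI inhibits neutrophil elastase, were near absent, with a sum of 5.30 to 10.2 CPM. Of their 4 tested genes S100a8 was higher and Camp lower, S100a8 losing the call without any 1 of the ND replicates or HFD replicate 1, and Camp without ND replicate 1, ND replicate 2 or HFD replicate 1. The part of these cells in the low members of HFD replicate 3 was not tested.

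**Figure D2:**
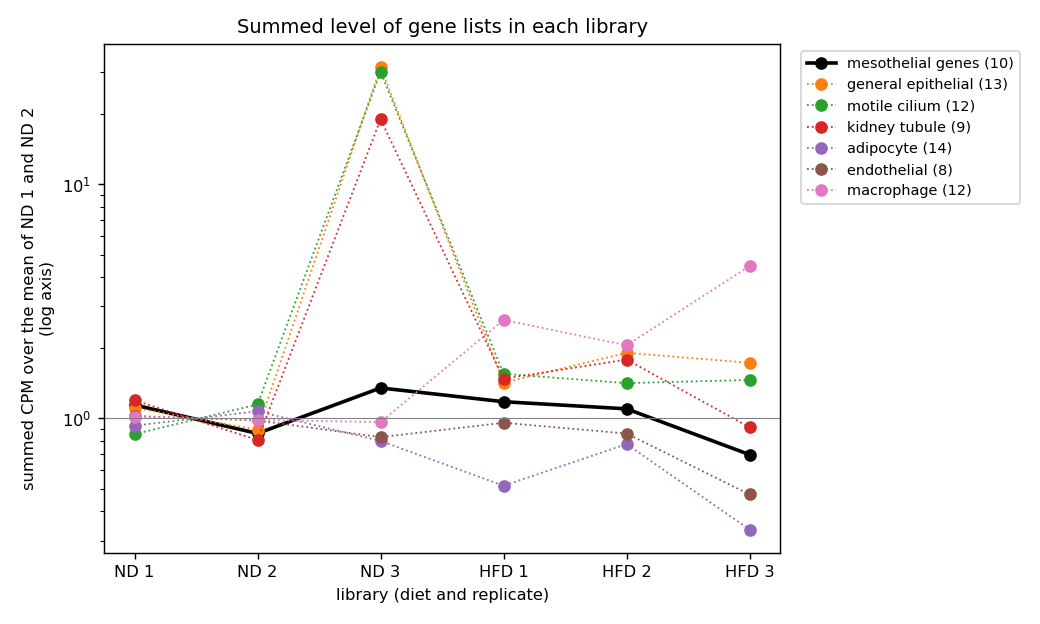
Summed CPM of 7 gene lists in each of the 6 libraries, divided by the mean of ND replicates 1 and 2 (log axis), with the number of genes in brackets. The mesothelial genes (black) lie between 0.699 and 1.35, the epithelial, cilium and kidney tubule lists peak in ND replicate 3, and in HFD replicate 3 the macrophage list is at its highest while the mesothelial, endothelial and adipocyte lists are at their lowest.

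Leaving out the libraries in doubt did not bring a member past the threshold. Without ND replicate 3 the median log2 fold change of the members was 0.03, without HFD replicate 3 it was -0.02, and without both it was 0.22, with 2 of 10 negative in place of 7. Without both, Muc16 had the largest value, 0.52 (SE 0.19, adjusted p = 0.122). Without HFD replicate 1 the median was -0.35 and all 10 were negative. The direction of the members as a group therefore changed with the libraries included, and their number of calls, 0 of 10, did not.

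Per length of gene, Slpi was the most abundant member, with a mean over the 6 libraries of 45.9 FPKM (fragments scaled to gene length and library depth). Upk3b followed with 34.1, Msln with 21.8, Gpm6a with 13.8, Krt19 with 11.2, Upk1b with 10.3 and Lrrn4 with 8.20 FPKM. The regulators Wt1 and Bnc1 were at 2.52 and 1.53 FPKM, and Muc16, with 26350 exonic bases the longest of the genes, was last at 0.507 FPKM. Each gene was above the next in this order in all 6 libraries, apart from Gpm6a above Krt19 in 5 of 6 and Krt19 above Upk1b in 3 of 6, so the levels of Krt19 and Upk1b did not differ beyond their spread. Of the summed FPKM of the members, Slpi took 26.2% to 34.6% in 5 libraries and 40.1% in HFD replicate 3, where the other members were low. Msln took 12.5% to 16.8% in the 6 libraries.

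The members followed a common profile over the libraries. Pearson's r between a member's log2 CPM and the mean of the other members was between 0.721 and 0.923 for 9 of them and 0.555 for Slpi. This describes 6 libraries, which share each library's composition, and has no p-value. Among 12514 other protein-coding genes whose average log2 CPM was over 1, those closest to the mean profile of the members were Sorbs2 (r = 0.988), Izumo4 (r = 0.984), Fam180a (r = 0.978), Brd3 (r = 0.976) and Igfbp6 (r = 0.967), and 24 had r above 0.95. Sorbs2, the closest, was at 16.5, 11.4 and 20.9 CPM under ND against 17.4, 16.1 and 9.96 CPM under HFD. Brd3 had a similar order with a much smaller range, from 48.7 to 55.8 CPM.

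Other genes known from mesothelium were called about as often as all tested genes, of which 9.85% were higher, 6.04% lower and 15.9% either. Of 18 such genes, 17 passed the filter, 1 was higher on HFD, 1 was lower and 15 did not pass, with a median log2 fold change of -0.18. Calb2, the gene of the mesothelial marker calretinin, was nearly absent, with 1 count in 1 library. Plxna4, a receptor for semaphorins, was at 18.4, 17.8 and 20.4 CPM under ND against 41.6, 35.2 and 41.7 CPM under HFD. The diets were well apart, with a log2 fold change of 1.07 (SE 0.13, adjusted p = 0.00624), and the call was kept when any 1 library was left out. Gata6, a transcription factor of mesoderm that resident peritoneal macrophages also use, was at 31.3, 24.8 and 25.7 CPM under ND against 13.2, 15.0 and 9.33 CPM under HFD. It fell by 1.13 on the log2 scale (SE 0.20, adjusted p = 0.0143), but did not pass without ND replicate 1 (adjusted p = 0.0627), ND replicate 2 (0.0532) or HFD replicate 1 (0.0645). Neither gene is restricted to mesothelium.

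The keratins of this list, Ezr and Rspo1 were picked for mention after their values were seen. Of the 18 genes, 9 were highest in ND replicate 3, beside 18.5% of all tested genes. They were not only keratins, since Rspo1 was there at 2.14 times the mean of the other ND libraries. Among the keratins, Krt8 and Krt18 were high in ND replicate 3. Krt8 was at 7.45, 8.35 and 81.1 CPM under ND against 7.16, 6.93 and 5.99 CPM under HFD, and Krt18, its pairing partner, was at 2.92, 3.89 and 35.6 CPM against 4.86, 4.52 and 2.36 CPM. In ND replicate 3 they were at 10.3 and 10.5 times the mean of the other ND libraries, against 2.55 times for Krt19. Their log2 fold changes of -2.27 (adjusted p = 0.131) and -1.85 (adjusted p = 0.213) did not pass. Krt7 was even, at 7.26 to 11.3 CPM in all libraries, and Krt14 was low, with its highest level, 2.76 CPM, in HFD replicate 3. Ezr, the gene of ezrin, which links membrane to actin in microvilli, was at 39.6, 30.0 and 82.4 CPM under ND against 72.3, 58.1 and 64.3 CPM under HFD. Its log2 fold change was 0.36 (SE 0.35, adjusted p = 0.511) and became 0.86 (SE 0.18, adjusted p = 0.0479) without ND replicate 3.

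**Figure D3:**
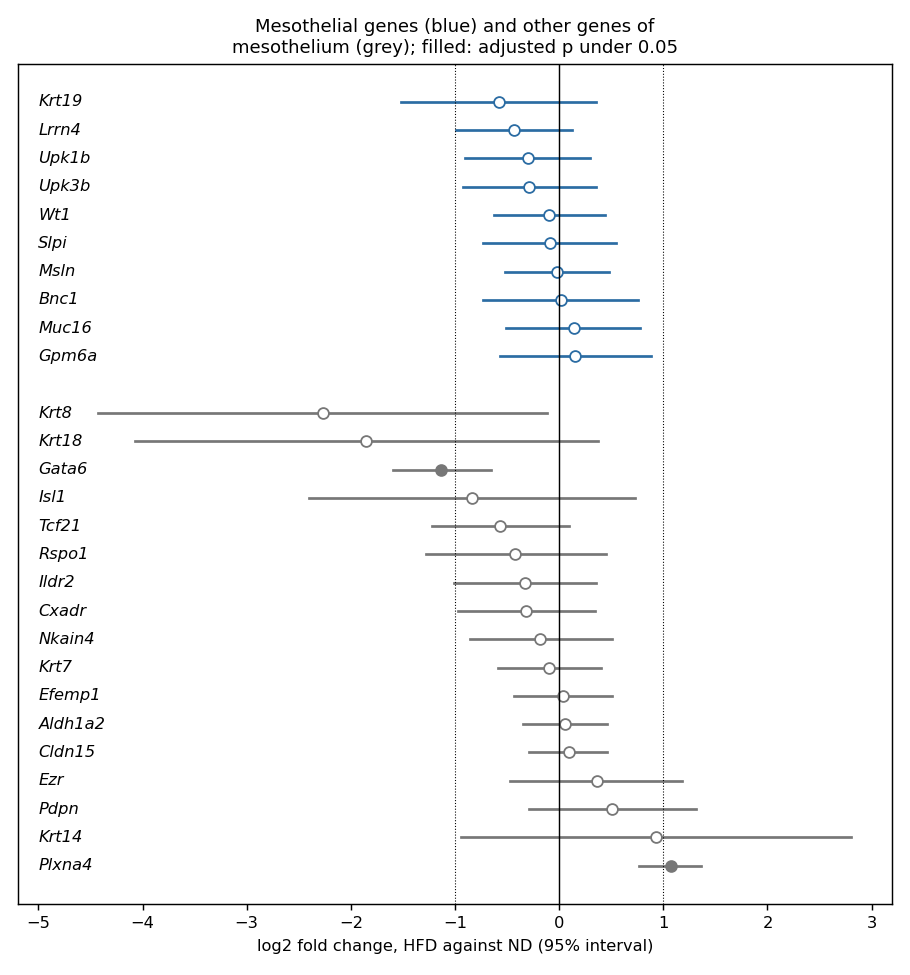
Log2 fold change, HFD against ND, with its 95% interval, of the 10 mesothelial genes (blue) and of the 17 tested other genes of mesothelium (grey); filled points had an adjusted p-value under 0.05 and dotted lines mark 2-fold. All 10 blue intervals cross 0, and the filled points are Gata6, lower at -1.13, and Plxna4, higher at 1.07.

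Some relatives of the members passed the test. Of 14 genes of the same families, 6 passed the filter, and 2 of these were lower on HFD and 0 higher (3 lower and 1 higher without HFD replicate 2), beside 6.04% lower and 9.85% higher among all tested genes. Bnc2, the basonuclin of fibroblasts and other mesenchymal cells, was at 19.5, 17.7 and 12.7 CPM under ND against 5.19, 8.49 and 3.63 CPM under HFD. It fell by 1.53 on the log2 scale (SE 0.33, adjusted p = 0.0250), a call lost without ND replicate 1 (adjusted p = 0.0916), ND replicate 2 (0.0847) or HFD replicate 1 (0.103). Lrrn1 was at 7.34, 4.70 and 6.35 CPM under ND against 1.86, 1.75 and 1.32 CPM under HFD. It fell by 1.90 (SE 0.30, adjusted p = 0.0104), and lost the call without ND replicate 1 (adjusted p = 0.0521) or HFD replicate 1 (0.0506).

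Gpm6b, the closest relative of Gpm6a, was at 18.0, 23.0 and 16.6 CPM under ND against 31.4, 19.8 and 47.1 CPM under HFD. Its highest library was HFD replicate 3, in which Gpm6a was lowest, and its log2 fold change was 0.77 (SE 0.31, adjusted p = 0.125). The count ratio of Bnc1 to Bnc2 within a library was 0.390, 0.284 and 0.661 on ND and 1.91, 0.752 and 1.38 on HFD. That of Lrrn4 to Lrrn1 was 5.01, 6.86 and 5.50 on ND and 16.3, 17.4 and 12.3 on HFD. Neither ratio overlapped between the diets, whereas that of Gpm6a to Gpm6b did. Bnc2 and Lrrn1 by themselves were lower in every HFD library than in every ND library, so the ratios are no separate result about the members. Of all tested genes taken singly, 40.9% did not overlap, and no such share was computed for ratios. These pairs were set side by side after their values were seen, and the differences between relatives were not tested. Lrrn2 had a log2 fold change of 0.39 (SE 0.25, adjusted p = 0.309). The bladder partners of the uroplakins were all but missing, with Upk2 at 0 in all libraries and Upk3a at 1 count in 1 library. Wfdc2, a relative of Slpi made by many secretory epithelia, had 83 counts in ND replicate 3 and at most 9 in the others, and did not pass the filter.

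**Figure D4:**
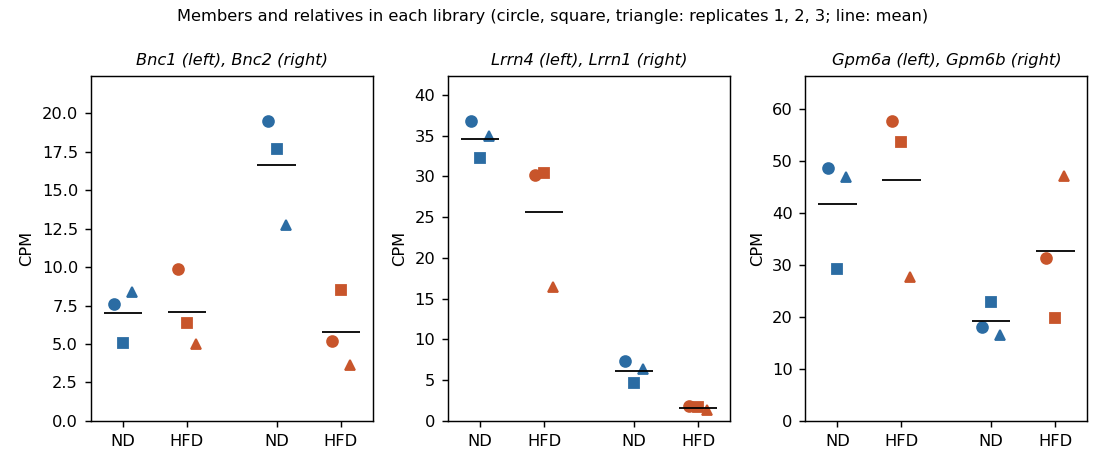
Level in CPM (linear axis from 0) of 3 members and of a relative of each in the 3 ND (blue) and 3 HFD (orange) libraries. Symbols mark the replicate and lines the group mean. Bnc2 and Lrrn1 are lower in all HFD libraries, Bnc1 overlaps between the diets, and Gpm6a and Gpm6b have their lowest and highest level in the same library, HFD replicate 3.

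Genes tied to a change of mesothelial cells toward a mesenchymal form were followed in a list of 10, all of them also expressed by fibroblasts, vessels or macrophages of fat. Of these, 1 was higher on HFD, 1 was lower and 8 did not pass, beside 9.85% higher and 6.04% lower among all tested genes, and the median log2 fold change was -0.19. Vim, the intermediate filament gene of mesenchymal and immune cells, was at 1181, 1313 and 1058 CPM under ND against 2995, 2273 and 4235 CPM under HFD. It was highest in HFD replicate 3, where the macrophage markers were highest too, and its log2 fold change of 1.42 (SE 0.28, adjusted p = 0.0182) passed without HFD replicate 2 or 3 and did not without ND replicate 1 (adjusted p = 0.0820), 2 (0.0637), 3 (0.0691) or HFD replicate 1 (0.0738). Cdh2, the gene of N-cadherin, which mesothelial cells use at their junctions, was at 6.59, 5.39 and 5.40 CPM under ND against 3.61, 2.83 and 2.30 CPM under HFD. It fell by 0.99 (SE 0.27, adjusted p = 0.0459), and the call was lost whichever library was left out (adjusted p = 0.0672 to 0.156). Values for the transition factors Snai1, Snai2, Twist1, Zeb1 and Zeb2, named after they were seen, lay between -0.44 and 0.39, with adjusted p-values of 0.0782 to 0.837.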

How the data were processed

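Epididymal fat RNA was sequenced in 3 ND and 3 HFD libraries (NEBNext Ultra kit). The authors deposited raw counts per gene, not normalized, and FPKM values of the same genes. The paper gives mapping to GRCm38 with TopHat and Cufflinks, whereas the submitters' processing notes name CASAVA 1.8, fastp, HISAT2 2.0.5, featureCounts 1.5.0-p3 and DESeq2 1.20.0 and a human build, although the identifiers are mouse genes. Counting parameters and strand setting were not given in the sources used here. Symbols and coordinates came from GENCODE M21 (GRCm38), in which 54495 of 54532 identifiers were found. Count totals were 16996896 to 18859320.

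The test was edgeR 4.0.16 (R 4.3.3), glmQLFit with robust=TRUE and glmQLFTest on the counts, with TMM normalization, filterByExpr, diet as the only factor and Benjamini-Hochberg adjustment at 0.05. CPM used TMM-scaled totals, and the SE was derived from the F statistic. FPKM served to compare genes. The code was tested on simulated data. The alternatives tried included limma-voom (limma 3.58.1), DESeq2 1.42.0, other normalizations and filters, robust=FALSE, a replicate block, limma on log2(FPKM + 1) or log2(FPKM + 0.1) and each library left out. Leaving out replicate 3 of both diets was chosen after seeing the data.

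The genes and lists were chosen with earlier results of these data known. Named were all members, up to 4 called genes with the largest changes per list or the 2 with the most counts where none passed, relatives with over 50 counts in a library, and the 5 genes most like the members, unless said otherwise. Some results are not reported here. No 2 libraries were as alike as sampling noise (chi-square per gene of 21.7 or more). P-values measure the spread between these samples. An exact permutation test of 3 against 3 cannot go below 0.1, so none was run.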

Additional observations from a re-analysis of the deposited data

How the results depend on the processing

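The number of members called, 0 higher and 0 lower, was the same under all 18 alternatives, and 1 member passed an unadjusted p-value of 0.05 in 1 of them, the fit without replicate 3 of either diet. The number of genes called in all was 2504. It was 649 with limma on log2(FPKM + 1) without a filter and between 474 (without HFD replicate 1) and 3940 (without HFD replicate 2) when 1 library was left out, with 492, 591 and 1003 without ND replicates 1, 2 and 3. The call of 1 lower gene among the other mesothelial genes (Gata6) became 0 with limma on log2(FPKM + 1) without a filter and 0 to 1 with 1 library left out. The call of 1 higher gene (Plxna4) became 0 in that same limma fit, 1 to 2 with 1 library left out, and 2 without replicate 3 of both diets, where Ezr was added (adjusted p = 0.0297). The cause of these moves was not tested. The number of members with a negative log2 fold change was 7 or 8 under the alternatives that kept all libraries, 5 to 10 with 1 library left out and 2 without replicate 3 of both diets.

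A fit with a replicate block called 1886 genes, 1693 of them also without it, and 0 members were called. The same-numbered libraries are of different mice, and their deviations from the group means correlated at -0.0938, -0.0606 and -0.00312, so the numbers were not taken as pairs. With 3 libraries per diet, changes of nearly 2-fold in some members, and of more than 2-fold in Krt19, could be missed. The 95% intervals of the log2 fold change reached -0.99 for Lrrn4 and -1.52 for Krt19. The smallest of these lower bounds in size was that of Muc16, at -0.51.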
